A study of Mus musculus with 32 samples.

Results

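Bone marrow-derived macrophages of Acod1 knockout (KO) and wild-type (WT) mice were compared after dexamethasone and LPS together. The comparison takes 8 of the 32 libraries of the series, 4 KO and 4 WT, chosen by their labels. Macrophages were grown from the marrow of mice of 8 to 12 weeks. The WT mice were C57BL/6J or Irg1+/+ animals and the KO mice were Irg1-/-, Irg1 being the older name of Acod1. The strain label is C57BL/6J in all 8 groups. Cells received 100 nM dexamethasone, a synthetic glucocorticoid, and 100 ng LPS (volume not given), with 24 h as the labelled time. The other 24 libraries were KO and WT cells left untreated, given dexamethasone alone or given LPS alone, 4 in each group. Nothing in the labels ties replicates to different animals, and the p-values therefore reflect variation among libraries, which may be technical.

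Acod1 encodes the enzyme that converts cis-aconitate to itaconate and is strongly induced by LPS in macrophages. Itaconate inhibits succinate dehydrogenase and can modify cysteines of proteins such as KEAP1, the repressor of NRF2. Glucocorticoids bind the receptor encoded by Nr3c1, which switches on genes such as Fkbp5 and represses many genes driven by NF-kappaB and AP-1. The study's title and design text place the comparison within the question of how metabolism takes part in the anti-inflammatory action of glucocorticoids.

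All 4 KO libraries were sequenced on lane 2 and all 4 WT libraries on lane 3, according to the column headers, so genotype and lane cannot be told apart in the direct comparison. The 8 libraries held 19405833 to 24032980 counts. Macrophage identity genes summed to between 3.01e+04 and 3.09e+04 CPM (counts scaled to library size) in WT and between 2.18e+04 and 2.24e+04 in KO, and none of the 14 was at 0. Neutrophil markers summed to 59.1 to 62.9 CPM in WT and 93 to 103 in KO, with Ngp, Ltf and Retnlg at 0 in both. Dendritic cell markers summed to 382 to 394 CPM in WT and 619 to 640 in KO, with Cd209a at 0 in both. This list includes Bst2, which is also counted below among the interferon-stimulated genes. Fibroblast and stromal markers summed to 24.2 to 27.6 CPM in WT and 21.2 to 25.3 in KO. B cell, T and NK cell, mast cell and erythroid lists each summed to under 5 CPM. The part of these marker shifts in the results was not tested.

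With dexamethasone plus LPS, 8137 of 14427 genes tested differed between the genotypes, which is 56.4% (edgeR quasi-likelihood test, Benjamini-Hochberg adjusted p under 0.05). Of these, 4118 genes (28.5%) were higher and 4019 (27.9%) lower in KO. The rises were larger: 1127 genes (7.81%) rose by 2-fold or more and 463 (3.21%) fell by as much. With LPS alone 1468 genes (10.2%) were called, with dexamethasone alone 130 (0.901%) and in untreated cells 78 (0.541%). The genotype difference with both agents differed from that with LPS alone for 6552 genes (45.4%), and from that in untreated cells for 6396 (44.3%). A constant lane effect cancels in this difference, because the KO LPS libraries were also all on lane 2 and the WT LPS libraries all on lane 3. A fit with a lane term left out the 1 merged library (KO control replicate 1). It called 4834 of 14667 genes in the direct comparison, 2448 higher and 2386 lower in KO, the background for the lane-term counts of lists below. However, the lane term is estimated from KO dexamethasone replicate 4, the 1 library on lane 2 in a group otherwise on lane 3.

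The promoters of 2 genes that were higher in KO are printed to show the motif letters found in gene groups that moved together. They are RefSeq sequences of build GRCm38.p6 that run from 250 bases before to 50 bases after a transcription start. Capitals mark ACGTG, the core of the hypoxia response element, in Slc16a3, and the kappaB string, GGGA and TTCC with any 2 bases between them, in Cxcl3. Both strands were searched, and the 2 kappaB matches of Cxcl3 overlap on opposite strands. Slc16a3 lies at chr11:120948817-120949116 (+ strand) and Cxcl3 at chr5:90785851-90786150 (+ strand).
Slc16a3: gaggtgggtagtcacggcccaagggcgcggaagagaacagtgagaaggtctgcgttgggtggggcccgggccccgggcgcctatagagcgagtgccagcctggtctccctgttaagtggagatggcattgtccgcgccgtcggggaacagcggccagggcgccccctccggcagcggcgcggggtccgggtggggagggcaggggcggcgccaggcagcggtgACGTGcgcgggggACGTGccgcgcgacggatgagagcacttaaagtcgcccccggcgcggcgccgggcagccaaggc
Cxcl3: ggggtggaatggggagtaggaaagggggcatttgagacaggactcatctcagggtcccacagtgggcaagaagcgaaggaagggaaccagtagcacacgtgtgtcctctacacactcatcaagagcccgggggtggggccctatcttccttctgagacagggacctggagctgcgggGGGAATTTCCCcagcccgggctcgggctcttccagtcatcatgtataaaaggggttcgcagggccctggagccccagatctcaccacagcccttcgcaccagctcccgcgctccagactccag
ACGTG was present in 59.1% of the 22 promoters of hypoxia-inducible factor 1 (HIF1) targets and in 54.5% of the 33 promoters of glycolytic genes, against 19.6% of all 32851 promoters. These shares count every annotated start, also one that lies inside a gene, as the only match in Vegfa does. The kappaB string was present in 4 of 9 CXC chemokine promoters and in 0 of 7 CC chemokine promoters, against 1.47% of all. A match describes the letters and is not evidence of binding.

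The KO profile with dexamethasone plus LPS lay between the KO profile with LPS and the WT profile with both agents. This pattern was examined after values had been seen and is given as a description. A weighted sum of the KO LPS profile (weight 0.637) and the WT dexamethasone plus LPS profile came within 0.25 log2 units of the KO level for 99.1% of the 9440 genes averaging 5 CPM or more. The KO LPS profile alone came that close for 72.1% of these genes and the WT profile alone for 52.9%. Fitted one by one, the 4 KO libraries had weights of 0.642, 0.682, 0.67 and 0.605. Each matched its weighted sum for 96.4% to 97.4% of genes, and matched the mean of the other 3 KO libraries for 96% to 96.9%. The 4 WT libraries with both agents had weights of 0 to 0.008, and the 4 KO LPS libraries 0.951 to 1. Each of these was fitted with the other 3 libraries of its own group as 1 end of a scale confined to 0 to 1. Weights near the ends follow from that setup and show only the spread within each group.

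**Figure D1:**
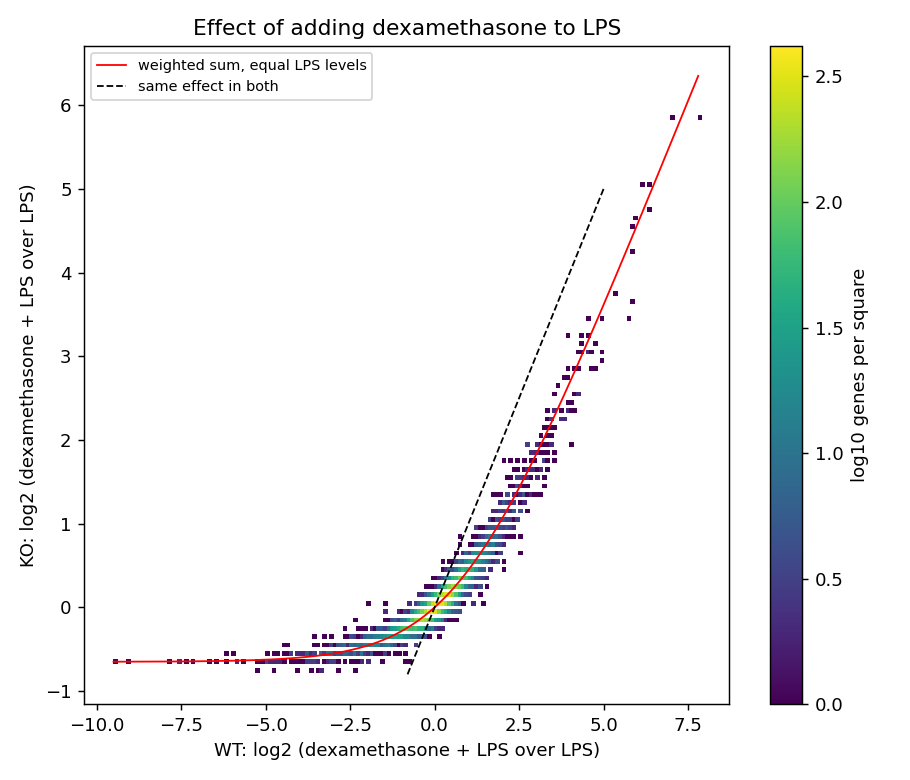
Effect of adding dexamethasone to LPS in WT (x axis) and KO (y axis), both as log2 ratios, with squares coloured by the log10 number of genes. The red line is the weighted sum at a weight of 0.637 for genes with equal LPS levels in both genotypes, and the dashed line marks equal effects. Genes lowered in WT flatten out on the KO axis, while genes raised in WT run below the dashed line.

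Genes with large responses were described from the same libraries as the weight, so the ratios below are not separate support for it. For 37 genes at least 32-fold lower in WT with both agents than with LPS, the KO level with both agents was 0.641 of the KO LPS level at the median, with a range of 0.584 to 0.731. For 42 genes at least 16-fold higher in WT with both agents than with LPS, the KO level was 0.401 of the WT level at the median, with a range of 0.266 to 0.716. In bulk RNA, a smaller response in every cell and a blend of RNA from cells or samples that responded and ones that did not cannot be told apart. Mixing of material between samples was not tested.

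**Figure D2:**
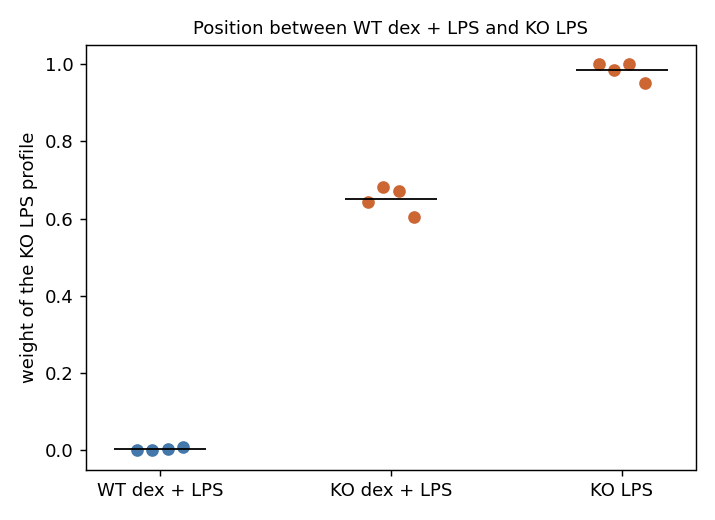
Weight of the KO LPS profile in each library (points), with group means as bars, on a scale from 0 (WT with dexamethasone plus LPS) to 1 (KO LPS). The KO libraries with both agents sit between 0.605 and 0.682. The reference libraries sit near 0 and 1 by construction, since their own groups define these ends.

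Inflammatory mediators were mostly higher in KO. Of 18 tested, 14 rose and 3 fell, with a median log2 fold change of 1.57, against a median of -0.00466 over all genes tested. Il1b, the cytokine interleukin 1 beta, measured 47.8, 41.5, 44.1 and 35.9 CPM in the WT libraries and 4118, 4639, 4814 and 3875 in the KO libraries. The groups were far apart, a log2 fold change of 6.69 ± 0.0737 (SE, adjusted p = 5.9e-50, edgeR), although Il1b with LPS alone was slightly lower in KO (-0.26, adjusted p = 0.00071). Nos2, the inducible nitric oxide synthase, measured 58.1, 64.1, 52.3 and 65.4 CPM in WT and 2083, 2318, 2433 and 2076 in KO, a log2 fold change of 5.21 ± 0.065. Nos2 with LPS alone did not pass the test (-0.12, adjusted p = 0.134). Ptgs2, the inducible cyclooxygenase, rose by 4.66 and Il1a by 3.79 on the log2 scale. Il6 rose by 2.19 and Tnf by 0.38. Csf3, a granulocyte growth factor, also fell, Saa3 fell by 0.55 and Il18 fell by 0.40. With the lane term, 6 members were called higher and 1 lower, and Nos2, Il6, Il1a and Tnf no longer passed (adjusted p = 0.574, 0.408, 0.063 and 0.0813). For Nos2 that term rests on 0, 0.0467, 0 and 0.136 CPM in the KO dexamethasone libraries, too few reads to estimate a lane effect.

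**Figure D3:**
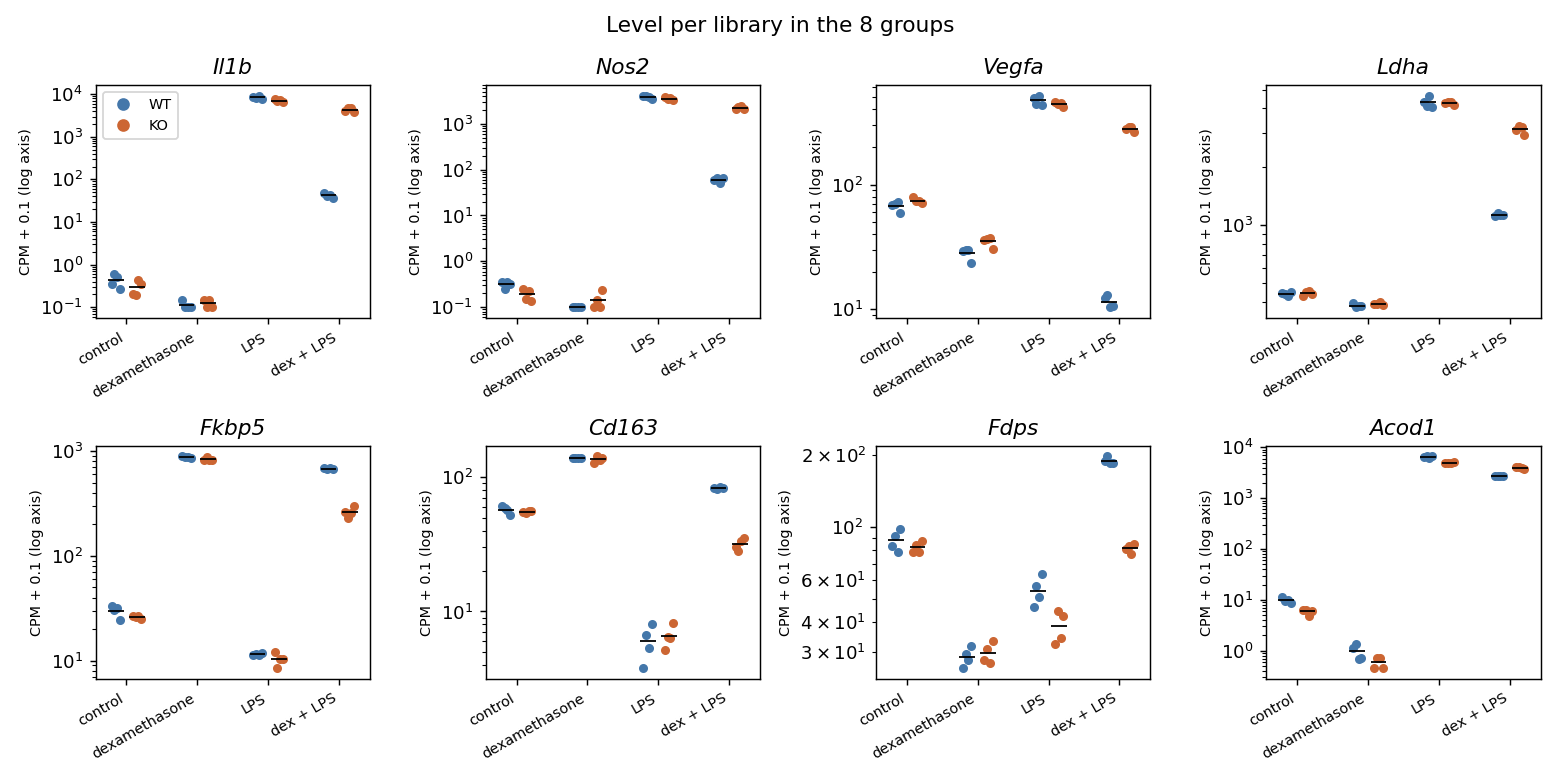
CPM plus 0.1 of 8 genes in each library (points, log axis) of the 4 treatments, WT in blue and KO in orange, with group means as bars. For Il1b, Nos2, Vegfa and Ldha the KO libraries with both agents sit near the LPS libraries and above WT. For Fkbp5, Cd163 and Fdps they sit below WT.

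Chemokines that attract monocytes and neutrophils followed. Among 12 CC chemokines 9 rose and 3 fell, and all 11 CXC chemokines tested rose. With the lane term, 5 CC members were called higher and 3 lower, and 4 CXC members were called higher and 0 lower. Cxcl3 and Ccl22 have no reads in the KO dexamethasone libraries and so no usable estimate in that fit. Ccl2, a monocyte attractant, measured 7.08, 7.06, 5.67 and 6.95 CPM in WT and 391, 455, 554 and 442 in KO, a log2 fold change of 6.10 ± 0.136. Ccl7 rose by 6.64 and Ccl22, a ligand of CCR4, by 5.01. Ccl3 and Ccl4, also leukocyte attractants, went the other way and fell by 1.03 and 0.98, and Ccl9 fell by 0.66. Cxcl3, whose promoter is printed above, rose by 5.28 ± 0.0818, from 10.1 to 13 CPM in WT to 392 to 473 in KO. Cxcl1 and Cxcl2, both neutrophil attractants, rose by 2.50 and 2.23. Of 15 chemoattractant receptors 10 rose and 5 fell, with Ccr1, a receptor of several CC chemokines, up by 4.01 and C5ar1, the C5a receptor, down by 0.90, and with the lane term 9 were called higher and 2 lower. With LPS alone the chemokine lists had negative medians, -0.556 for CC and -0.66 for CXC.

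Of 9 anti-inflammatory cytokines and decoys tested, 5 rose, 1 fell and 3 were not called. Over all genes tested, 28.5% were higher and 27.9% lower. Il1rn, which blocks the interleukin 1 receptor, measured 17.2 to 20.2 CPM in WT and 295 to 335 in KO, a log2 fold change of 4.04 ± 0.0682. Il13ra1 and Il4ra, receptor chains for interleukins 4 and 13, rose by 2.39 and 1.12. Il10 stayed at trace level, 0.162 to 0.738 CPM in WT and 0.0494 to 1.08 in KO, and did not pass the test (adjusted p = 0.764). Among 22 NF-kappaB factors and feedback inhibitors 17 rose and 5 fell, with Atf3 up by 3.02 and Socs1 up by 2.16. Dusp1, a phosphatase that silences MAP kinases, fell by 0.77 and Tnfaip3 by 0.34. With the lane term 4 of the 9 were called higher and 0 lower, and 12 of the 22 were called higher and 3 lower.

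Most interferon-linked and antigen presentation genes were higher in KO. All 35 interferon-stimulated genes tested rose, with a median of 0.945, and all 13 guanylate-binding proteins and immunity-related GTPases rose, with a median of 1.44. With dexamethasone alone, 12 of the 35 and 2 of the 13 were higher in KO and 0 lower, where 0.901% of all genes were called. With both agents Ifit3 rose by 2.35, Irf7 by 1.39 and Gbp4 by 3.55 on the log2 scale. In the class II and co-stimulation list, 10 of 12 genes rose and 1 fell. H2-Aa, a class II chain, measured 9.78 to 11.4 CPM in WT and 41.2 to 45.5 in KO, and Cd274, the ligand PD-L1, rose by 2.07 ± 0.0477. All 17 MHC class I and immunoproteasome genes rose, with H2-Q4 up by 1.51.

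Glucocorticoid receptor targets were mostly lower in KO. Of 23 tested 14 fell and 5 rose, with a median log2 fold change of -0.69. Fkbp5, a co-chaperone of the receptor, measured 687, 669, 695 and 673 CPM in WT and 265, 228, 257 and 299 in KO. The groups did not overlap, and the log2 fold change was -1.38 ± 0.0501 (adjusted p = 1.6e-28). Mertk, a receptor for apoptotic cells, fell by 1.41, Cd163, a haemoglobin scavenger, by 1.40, and Tsc22d3, also called GILZ, by 1.22. Glul fell by 1.00 and Per1, a clock gene, by 0.69. Errfi1 rose by 1.75 and Zfp36 by 0.99.

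With dexamethasone alone, edgeR called 0 of these 23 genes between the genotypes, where it called 0.901% of all genes, so few calls are the background there. Of the 23, 6 had an unadjusted p under 0.05 and DESeq2 called 1. The list median was then -0.0697. With LPS alone, 9 of the 23 were lower and 3 higher in KO, where 10.2% of all genes were called, with a list median of -0.109. With dexamethasone alone Fkbp5 measured 878 ± 12.8 CPM in WT and 836 ± 24.6 in KO (mean ± SD, n = 4), and Cd163 139 ± 0.785 and 136 ± 6.95. Nr3c1, the receptor itself, measured 207 to 212 CPM in WT with both agents and 162 to 165 in KO, a log2 fold change of -0.36 ± 0.0439. Nr3c1 was not called with dexamethasone alone (-0.03, adjusted p = 0.908) or with LPS alone (-0.03, adjusted p = 0.792).

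Glycolysis and HIF1 target genes were higher in KO. Of 21 glycolytic genes 18 rose and 0 fell, with a median of 1.00. Ldha, which makes lactate, measured 1116, 1153, 1119 and 1129 CPM in WT and 3102, 3246, 3195 and 2921 in KO, a log2 fold change of 1.46 ± 0.0335. The lactate exporter Slc16a3 rose by 2.59 and the glucose transporter Slc2a1 by 2.37. Pfkfb3, an activator of phosphofructokinase, was not called (0.05, adjusted p = 0.415). Outside glycolysis 17 of 18 HIF1 targets rose, with a median of 2.39. Vegfa, the vascular growth factor, measured 10.3 to 12.8 CPM in WT and 265 to 289 in KO, a log2 fold change of 4.61 ± 0.0734. Adm rose by 6.87, Ndrg1 by 4.24 and Bnip3, a mitophagy receptor, by 3.28. In the lane-term fit Adm has no usable estimate, because it has no reads in the KO dexamethasone libraries.

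Genes of mitochondrial oxidation were lower by small amounts. Of 24 TCA cycle genes 21 fell and 2 rose, with a median of -0.34. Idh3a, a subunit of isocitrate dehydrogenase, measured 111 to 117 CPM in WT and 53.2 to 61.7 in KO, and fell by 0.98 ± 0.0481. Sdha, a succinate dehydrogenase subunit, fell by 0.57. Me2, a mitochondrial malic enzyme, rose by 0.98. Of 55 nuclear-encoded respiratory chain genes 53 fell and 0 rose, with a median of -0.43, and 7 of 11 mitochondrially encoded genes fell. Over all genes tested, 27.9% were lower. With LPS alone, 6 of the 11 mitochondrially encoded genes were already lower in KO and 1 higher, and 8 of the 55 nuclear-encoded genes were lower. The difference from LPS alone was called lower for 5 of the 11 and 48 of the 55. The mitochondrially encoded share of counts was 0.574% ± 0.0397 in WT and 0.348% ± 0.0191 in KO (SD, n = 4). Pdk1, which inhibits pyruvate dehydrogenase, rose by 1.59, whereas Dlat and Dld, subunits of the pyruvate dehydrogenase complex, fell by 0.57 and 0.62.

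Biosynthetic and proliferation lists were lower in KO. Of 23 cholesterol synthesis genes 22 fell, with Fdps at 184 to 197 CPM in WT and 77.2 to 84.7 in KO, a log2 fold change of -1.21 ± 0.0692. The cholesterol exporters Abca1 and Abcg1 rose by 1.79 and 0.95, and the fatty acid genes Fasn and Scd1 fell by 1.26 and 1.33. Of 30 cell cycle genes 28 fell and 1, Pcna, rose, with Ccna2 at 9.51 to 11.7 CPM in WT and 2.51 to 4.29 in KO. Of 77 ribosomal protein genes 69 fell, with a median of -0.38, and 17 of 18 endoplasmic reticulum chaperones fell, with Hspa5 down by 0.61. Part of this was present with LPS alone, where 10.2% of all genes were called. There 15 of the 23 cholesterol genes, 11 of the 18 chaperones and 27 of the 77 ribosomal protein genes were lower in KO. Of the 30 cell cycle genes 2 were. The difference from LPS alone was called lower for 20, 15, 61 and 25 genes of these lists, in that order. Among NRF2 targets 16 of 26 rose and 6 fell. Hmox1, haem oxygenase 1, measured 655 to 673 CPM in WT and 4327 to 4833 in KO, a log2 fold change of 2.79 ± 0.0387, while Nqo1 was not called (adjusted p = 0.12) and Slc7a11 fell by 0.29. With the lane term 15 NRF2 targets were called higher and 2 lower.

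**Figure D4:**
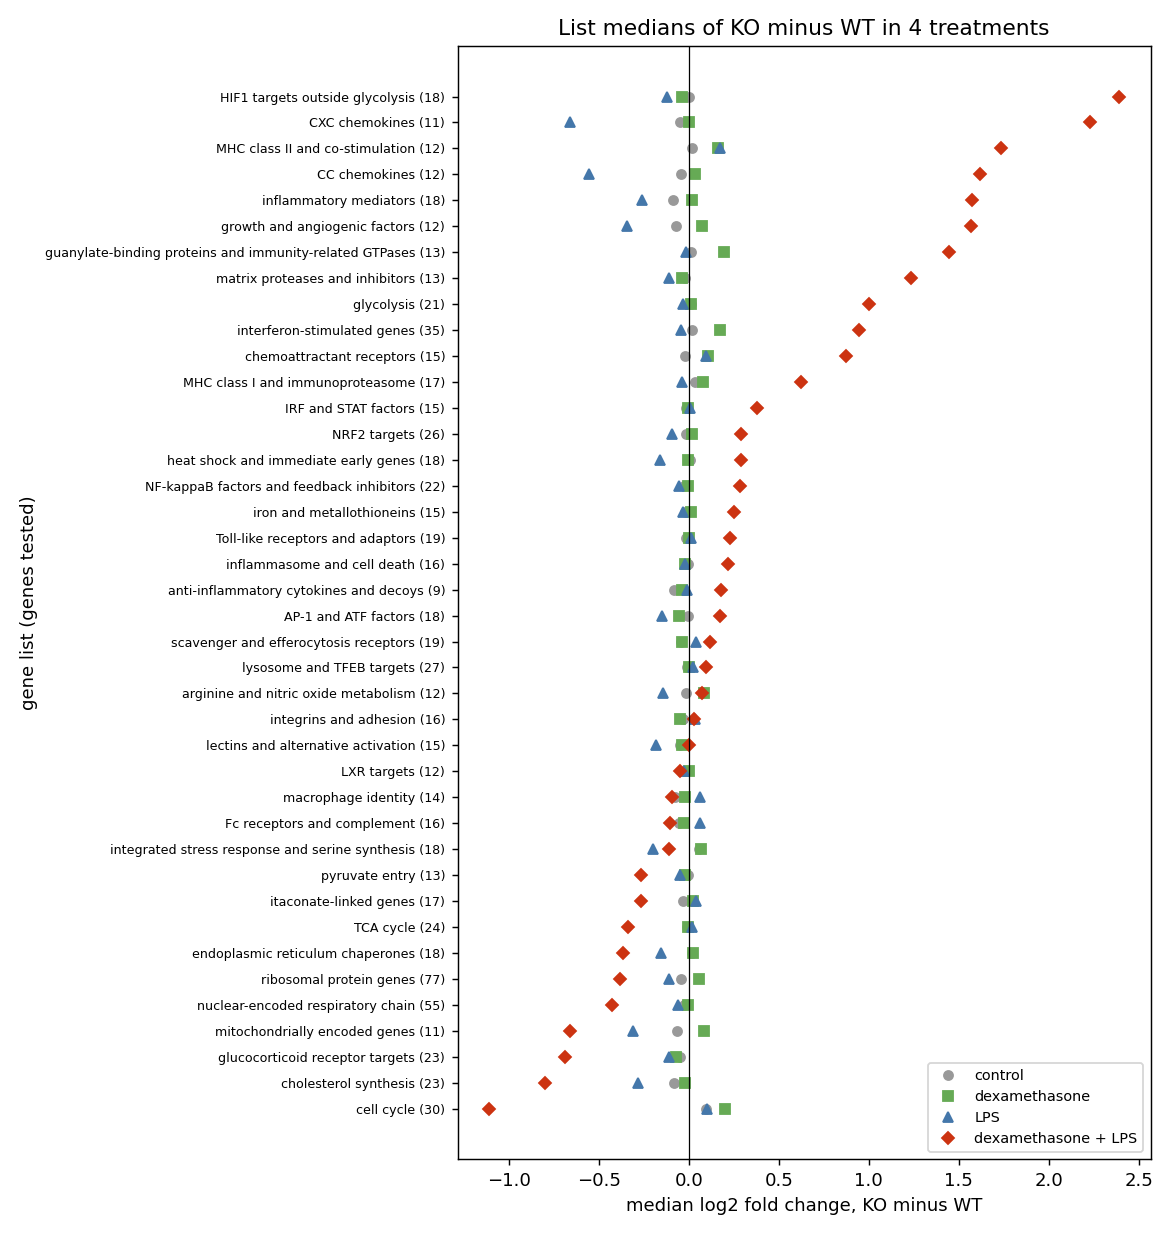
Median log2 fold change of KO minus WT for each gene list (number of genes tested in brackets) in untreated cells, with dexamethasone, with LPS and with both. With both agents the medians run from -1.11 for cell cycle genes to 2.39 for HIF1 targets, and in the other 3 treatments they stay between -0.66 and 0.199.

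Genes that responded in WT cells were defined on libraries outside this comparison. Over all genes tested, 28.5% were higher and 27.9% lower in KO. Of 1137 genes that LPS raised in WT, 731 were higher and 150 lower, with a median of 0.972. Of 1205 genes that LPS lowered in WT, 119 were higher and 544 lower, with a median of -0.487. Of 515 genes that dexamethasone raised in WT, 223 were lower and 72 higher, with a median of -0.468. Of 876 genes that dexamethasone lowered in WT, 384 were higher and 235 lower, with a median of 0.329. Surface receptors were split, with 10 of 19 scavenger and efferocytosis receptors higher and 9 lower. Cd36, a lipid scavenger receptor, averaged 15.5 ± 0.333 CPM in WT and 96.5 ± 5.78 in KO (SD, n = 4) and rose by 2.64 ± 0.0811 (SE), while C1qa, a complement component, fell by 1.00.

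The largest changes were taken among called protein-coding genes of at least 5 CPM with no overlap between the libraries of the compared groups. The 10 largest rises were in Mmp12, Mgarp, Flrt3, Inhba, Mmp13, Cd200, Arg1 and, described above, Il1b, Ccl7 and Adm. Mmp12, macrophage elastase, measured 2.02, 2.77, 2.54 and 2.59 CPM in WT and 573, 641, 679 and 638 in KO, a log2 fold change of 7.99 ± 0.174. Mmp13, a collagenase, rose by 6.37 and Inhba, the activin A subunit, by 6.73. Mgarp, Flrt3 and Cd200 rose by 7.66, 7.11 and 6.28. Arg1, arginase 1, had 0 counts in the 4 WT libraries and 134, 158, 172 and 166 CPM in KO, at least 4.11e+03-fold higher against a floor of 3 counts over the group. The 10 largest falls were smaller, in Edn1, Fzd4, Spn, Ccna2, Hal, Jaml, Mctp2, Rap1gap2, Rdh12 and Tmem63c. Edn1, endothelin 1, measured 35.7 to 38.2 CPM in WT and 8.99 to 11.6 in KO and fell by 1.87 ± 0.11, and Fzd4, a Wnt receptor, fell by 1.72. Spn, the sialoprotein CD43, fell by 1.66.

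For the difference from LPS alone, ranked without the overlap condition, the largest rises were in Arg1, Mmp12, Mgarp, Ccl7 and Inhba. Mmp12 differed by 8.72 ± 0.206 between the 2 genotype comparisons on the log2 scale, Ccl7 by 7.58 and Inhba by 7.47. The largest falls were in Jaml (-4.39), Hhipl1 (-3.98), Ccna2, Knstrn (-2.69) and Knl1 (-2.60), which averaged under 1 CPM with LPS in both genotypes.

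Of 8073 protein-coding genes with a weighted sum of at least 10 CPM, 2 deviated from it by a mean of 0.5 log2 units or more with the same sign in all 4 KO libraries, which are all set against the same 2 reference profiles. The genes named here were chosen after their values had been seen. Marco, a scavenger receptor, was lower than the sum by a mean log2 difference of -0.573 ± 0.0745 (SD, n = 4), and Edn1 by -0.429. Marco was also lower in KO with LPS alone (-0.66, adjusted p = 1.4e-15). Fgl2 was higher than the sum by 0.529, Gfi1 by 0.498, Axl by 0.493 and Ptx3, a soluble pattern receptor, by 0.432. Axl, a receptor for apoptotic cells, was higher in KO in all 4 treatments, by 0.50 untreated, 0.70 with dexamethasone, 0.43 with LPS and 0.14 with both.

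Acod1 (ENSMUSG00000022126, chr14:103284413-103294009, plus strand in the deposited table) measured 2748, 2783, 2708 and 2712 CPM in WT and 4119, 4034, 3908 and 3670 in KO. Reads over the gene were thus higher in KO with both agents, by 0.52 ± 0.0405, and lower in KO with LPS alone, by -0.38 ± 0.0404. The deleted part of the gene is not given in the sources used here, so gene-level reads do not check the knockout label. With the lane term the Acod1 difference did not pass (adjusted p = 0.124). For this gene the term rests on KO dexamethasone libraries at only 0.359 to 0.634 CPM. Of 27 genes tested within 5 Mb of Acod1, 9 were higher and 3 lower, with a median of 0.158, where 28.5% of all genes tested were higher and 27.9% lower. Ednrb, the endothelin B receptor, rose by 3.35 and Dach1 by 2.48 in this window, and with LPS alone they differed by 0.25 and -0.69.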

How the data were processed

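RNA of 32 macrophage libraries was sequenced by the submitters. STAR and featureCounts with GRCm38/mm10 are named per the submitters' processing notes, and the file header names featureCounts 2.0.0, paired and unstranded (strand setting 0), on exons of GENCODE vM32, so antisense and overlapping genes share reads. The authors deposited raw counts per gene for 56953 genes, and positions printed are those of that table. Of the column headers, 22 libraries were on lane 3, 9 on lane 2 and 1 was merged. Library totals were 17559079 to 25049200.

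Groups follow the labels. Counts were filtered with filterByExpr, scaled by TMM and fitted with edgeR 4.0.16 in R 4.3.3 (glmQLFit, 8 group means, 24 residual degrees of freedom, BCV 4.36%). The call threshold was 0.05 on p-values adjusted by Benjamini-Hochberg over 14427 genes. The standard error is the log2 fold change over the root of F. CPM of single genes are TMM-scaled. Those in the marker sums, the weighted sum, the ratios of genes with large responses and the plot of dexamethasone effects are on library totals. A pseudocount of 0.5 CPM was used for the weighted sum and that plot. Weights were found in steps of 0.001 by the smallest median absolute log2 deviation. The test, and a separate implementation of the weight estimate, were tested on simulated data.

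Named genes are Acod1, Nr3c1, Il1b, Il6, Nos2, Tnf and Il10, up to 4 members per list with the smallest adjusted p, the 10 largest rises and falls among called protein-coding genes of at least 5 CPM, 5 each for the difference from LPS, and up to 4 genes near Acod1. The 10 largest rises and falls also required no overlap between the libraries of the compared groups. Further list members named were chosen after values were seen. The members and lists were chosen with earlier results of these data known. Alternatives were RLE, no scaling, no count filter, DESeq2 1.42.0, adjusted p under 0.01, only the compared groups, a replicate block, a lane term and leaving out each library.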

Additional observations from a re-analysis of the deposited data

Results flagged for a closer look

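Single libraries stood apart in 3 of 60 groups of 4 examined, where chance flags about 1 in 20. Adm reached 41.2 CPM in 1 KO library with dexamethasone plus LPS. Cd200 reached 0.489 CPM and Knstrn dropped to 5.53 CPM in 1 WT library each.

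The genotype difference with both agents differed from that with LPS alone for 6552 genes and from that in untreated cells for 6396 genes (edgeR, interaction contrast). Among the always-named genes the difference from LPS was 0.899 for Acod1, -0.33 for Nr3c1, 6.95 for Il1b, 2.87 for Il6, 5.34 for Nos2 and 0.589 for Tnf on the log2 scale, each past the threshold.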

How the results depend on the processing

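RLE scaling, no scaling, DESeq2 and the replicate block kept each count of called genes within 1.5 times. The share of calls that were higher in KO was 50.6%, and 45.4% without scaling. The lane term gave 4834 genes for KO minus WT with both agents, 4250 for its difference from untreated cells, 112 for LPS and 75 for dexamethasone. That term rests on 1 library, so genes without reads in the KO dexamethasone group have no lane estimate. Genes near 0 there, such as Nos2 and Acod1, have an uncertain one. Adjusted p under 0.01 gave 829 genes for LPS, 38 for control and 62 for dexamethasone. Fitting only the compared groups gave 667, 121 and 401, and no count filter gave 137 for control and 201 for dexamethasone. Leaving out 1 library gave 7711 to 7903 genes with both agents, 1562 to 1638 of 2-fold or more, 6232 to 6573 for the difference from LPS, 6083 to 6259 for that from control, 1152 to 1456 for LPS, 47 to 73 for control and 69 to 119 for dexamethasone. The weight was 0.622 to 0.642 under the alternatives added after seeing the data and 0.63 to 0.649 without 1 library. Il10, never past the threshold, ran from -1.25 to 0.18 without 1 library and changed sign without WT replicate 2 (0.106), KO replicate 2 (0.169) or KO replicate 4 (0.18), and Pdgfrb with the lane term (1.94); the cause was not tested. Deviations of same-numbered KO and WT libraries had correlations of 0.000347, -0.0105, 0.0185 and 0.0252 with both agents. In the other treatments these ran from -0.0302 to 0.0701. In each treatment the same-numbered WT library was the best match for some KO libraries and not for others. Whether replicate numbers pair the samples is therefore not settled, and correlations across treatments within a genotype were not computed. With the replicate block Pdgfrb lost its call (edgeR, adjusted p = 0.0508) while 8149 genes were called.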
